A study of Mus musculus with 2 samples.

Results

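Uterine natural killer cells, the lymphocytes that gather in the uterus around an implanting embryo, are followed here through 10 genes: the granule effectors Gzma, Gzmb, Gzmc, Gzmd and Prf1, the receptors Klrd1, Klrk1, Ncr1 and Il2rb, and the cytokine Il15. The genes were taken from a fixed list of symbols, with no measured value in the rule, and every probe set annotated to exactly 1 gene symbol of that list was used. This gave 13 of 22690 probe sets, for 10 of 12393 genes: 2 probe sets each for Gzmd, Prf1 and Il2rb and 1 for each of the other genes.

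The RNA came from mouse uterine stromal cells, the connective tissue cells under the uterine epithelium, freed by enzymatic digestion of the uterine horns on day 5 of pregnancy and pooled over 3 animals per genotype. It was hybridised to 2 one-colour Affymetrix Mouse Genome 430A 2.0 arrays, 1 for the conditional knockout and 1 for the floxed control. The knockout animals carried floxed alleles together with PRcre, a Cre recombinase expressed from the progesterone receptor locus, and the controls are labelled as floxed with the gene intact. The labels differ on the floxed gene, since the titles give Hif1, the genotype field gives Hif2 alpha and the breeding note gives both Hif1 and Rac1, so the first array is called knockout-labelled here. Each of these target genes kept a signal above the floor in the knockout-labelled RNA at its brightest probe set. Signals were 78.1 on the knockout-labelled array and 59.4 on the control array for Epas1, which encodes Hif2 alpha, 1544 and 721 for Hif1a, and 757 and 1038 for Rac1. In the same order of arrays, the next brightest probe set had 297 and 114 for Hif1a, and 332 and 664 for Rac1. The place of the probes relative to any deleted exon was not analysed here.

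Natural killer cells kill through granules that hold granzymes, a family of serine proteases, and perforin, which opens the target membrane to them. Their activity is set by the balance of activating and inhibitory surface receptors, and their growth and survival depend on interleukin 15. In the mouse uterus interleukin 15 is made by stromal and decidual cells, and mice without it lack mature uterine natural killer cells. These cells are few in the mouse uterus before implantation and multiply in the decidua after it.

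The granzyme genes of the mouse fall in separate places, Gzma on chromosome 13 and Gzmb, Gzmc, Gzmd and Gzme in 1 cluster on chromosome 14. The 250 bases upstream of the annotated start are shown for these 4 clustered genes because the results differ among them, and because Gzmd and Gzme share a probe set. They are from RefSeq, build GRCm38.p6, read 5′ to 3′ on the strand of the gene. Capitals mark the Runx core, TGTGGT or its reverse complement ACCACA, the letters bound by Runx transcription factors.
Gzmc (chr14:56234658-56234907, minus strand): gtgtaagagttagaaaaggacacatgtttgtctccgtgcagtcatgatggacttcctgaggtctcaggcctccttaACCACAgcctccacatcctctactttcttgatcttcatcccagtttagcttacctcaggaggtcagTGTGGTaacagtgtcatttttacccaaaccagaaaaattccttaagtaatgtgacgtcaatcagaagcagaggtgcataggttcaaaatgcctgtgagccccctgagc
Gzmd (chr14:56132594-56132843, minus strand): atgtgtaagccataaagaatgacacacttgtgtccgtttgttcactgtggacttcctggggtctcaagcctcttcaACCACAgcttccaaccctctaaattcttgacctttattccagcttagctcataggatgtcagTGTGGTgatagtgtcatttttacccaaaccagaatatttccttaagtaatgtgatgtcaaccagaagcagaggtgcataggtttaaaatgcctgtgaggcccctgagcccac
Gzme (chr14:56120626-56120875, minus strand): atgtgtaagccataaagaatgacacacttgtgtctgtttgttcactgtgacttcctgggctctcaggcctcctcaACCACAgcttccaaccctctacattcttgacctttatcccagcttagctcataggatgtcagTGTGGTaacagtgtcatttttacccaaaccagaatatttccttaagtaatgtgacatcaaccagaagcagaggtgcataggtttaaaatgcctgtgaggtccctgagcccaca
Gzmb (chr14:56262335-56262584, minus strand): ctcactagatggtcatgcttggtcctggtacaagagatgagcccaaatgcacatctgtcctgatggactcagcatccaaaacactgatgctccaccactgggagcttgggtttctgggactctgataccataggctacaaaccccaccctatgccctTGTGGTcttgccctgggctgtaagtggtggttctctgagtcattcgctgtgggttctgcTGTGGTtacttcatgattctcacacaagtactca
The upstream sequences of Gzmd and Gzme were identical at 238 of 249 aligned bases (95.6%) and those of Gzmc and Gzmd at 206 of 244 (84.4%), whereas Gzmc and Gzmb shared 137 of 216 (63.4%). Gzmc and Gzmd each held 2 Runx core matches, starting 174 and 108 bases before the start in Gzmc and 174 and 112 bases before it in Gzmd. Gzmb had 2 matches, at 93 and 34 bases before its start. An upstream sequence was matched for 7 of the 10 genes, leaving Klrd1, Il2rb and Il15, and the first listed start was used for Ncr1, which has more than 1. All 7 held the Runx core, searched on both strands, against 14.2% of 27025 genes with a window of the same length. Of 4 further motifs searched in the same way, the T-box core TCACAC occurred in 2 of the 7 (Gzmb and Ncr1, 12.2% of all), the hypoxia-inducible factor core ACGTG in 1 (Klrk1, 16.6% of all), and the STAT5 motif TTCNNNGAA (7.18% of all) and the TATA box TATAAA (13.0% of all) in none. No match of one motif overlapped a match of another. The related sequences of Gzmc and Gzmd are not separate instances, and a match of letters is not a binding site.

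Signals are MAS5 values, the summary that Affymetrix software makes from the probes of a probe set, on a linear scale. They had a trimmed mean of 150.1 on each array, and medians of 34.4 on the knockout-labelled array and 41.8 on the control array. Values under a floor of 19.7, the 40th percentile of both arrays, were raised to it, and 8593 genes were above the floor on at least 1 array at their brightest probe set. Ratios are log2 values, knockout-labelled minus control. With 1 array per group no replicate and hence no test was possible, so the values speak of 2 pools of RNA and not of the genotypes. As a guide to error, the log2 ratios of the 2 brightest probe sets of a gene were compared over 2660 genes, and the SD of their difference, divided by the square root of 2, was 0.64. This probe set SD leaves out the spread between animals, pools and arrays. The 2 probe sets had log2 ratios of the same sign in only 55.8% of the 2660 genes. The arrays also differed in the RNA itself, as the 3′ to 5′ signal ratio of b-actin was 16.0 on the knockout-labelled array and 2.27 on the control array, and that of Gapdh was 7.25 and 1.49. The part of this imbalance in any ratio below was not tested.

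**Figure D1:**
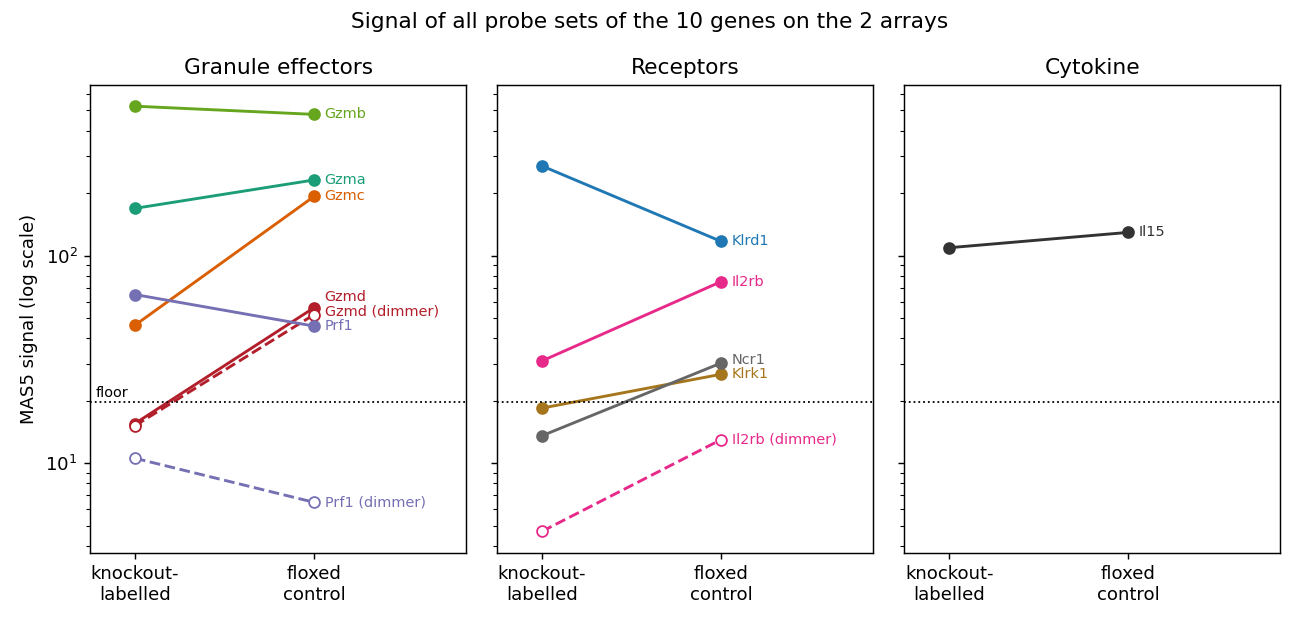
MAS5 signal (log scale) of the 13 probe sets on the knockout-labelled and the control array, in panels for granule effectors, receptors and the cytokine; filled points are the brightest probe set of a gene, open points the dimmer one, and the dotted line is the floor of 19.7. Gzmc, Gzmd and Il2rb slope up towards the control array, whereas Klrd1 slopes up towards the knockout-labelled array at 270.0 against 117.

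All 10 genes were above the floor on the control array, and 7 were on the knockout-labelled array, where Gzmd, Klrk1 and Ncr1 were under it. By comparison, 7866 of the 8593 genes measured passed the floor on both arrays. Of the 10, 3 were lower by 2-fold or more on the knockout-labelled array (Gzmc, Gzmd and Il2rb), where 13.0% of all 8593 genes were so. Klrd1 alone of the 10 was at least 2-fold higher, where 6.21% of all genes were. By any amount, 7 were lower and 3 higher, where 4754 of all 8593 genes were lower and 3839 higher. The median log2 ratio of the 10 was -0.45, with genes at the floor taken at their bound, and that of all genes was -0.10. In RNA of a mixed digest, fewer cells of a type and less RNA per cell cannot be told apart.

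**Figure D2:**
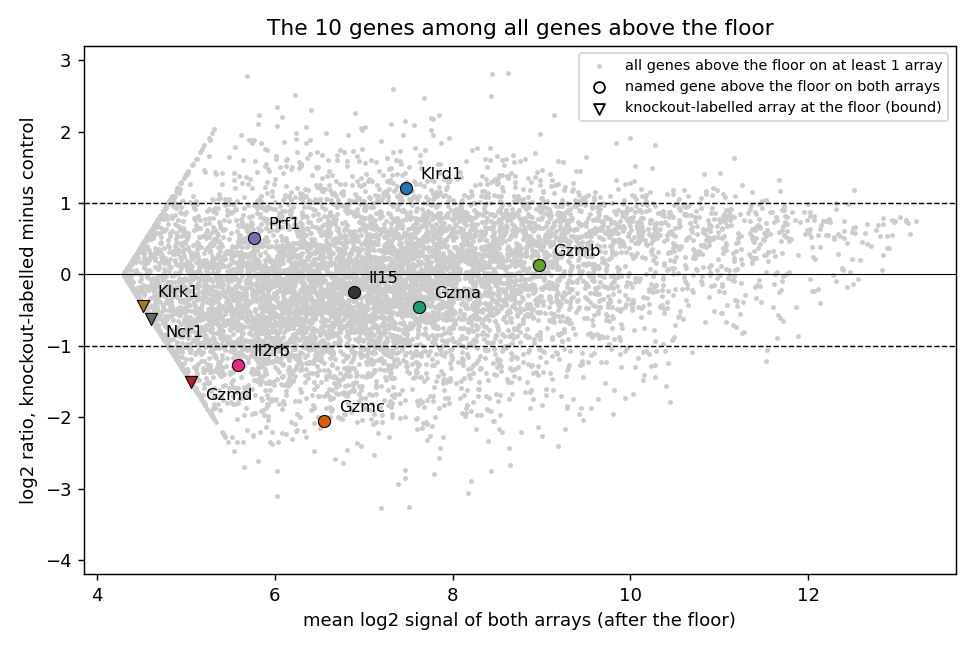
Log2 ratio, knockout-labelled minus control, against mean log2 signal for 8593 genes (grey) and the 10 genes (coloured); dashed lines mark 2-fold, and triangles mark bounds, with the knockout-labelled signal at the floor. Gzmc lies lowest of the 10 at -2.06 and Klrd1 highest at 1.21, and the others lie between them.

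Among the granule effectors, granzymes C and D were lower on the knockout-labelled array and granzymes A and B and perforin were within 2-fold. Gzmc, a granzyme of the chromosome 14 cluster, had a signal of 46.2 on the knockout-labelled array and 193 on the control array. Its log2 ratio of -2.06, 4.17-fold lower, was the lowest of the 10, and 0.919% of all genes had a lower one. Gzmc had only this probe set, so no second measurement of it stood on the arrays.

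Gzmd, a granzyme known in the mouse from granulated cells of the pregnant uterus, had signals of 15.5 on the knockout-labelled array and 56.1 on the control array at its brighter probe set. At the other it had 15.1 and 51.9. Both probe sets were under the floor on the knockout-labelled array, and they gave lower bounds on the difference of 2.84-fold and 2.63-fold. The brighter has the suffix _x_at, which marks probes that can match several transcripts. A further probe set, annotated to both Gzme and Gzmd and so outside the rule, went the other way, at 113 on the knockout-labelled array and 60.4 on the control array, a log2 ratio of 0.90. Gzme itself, at the probe set that names it alone, had 26.0 and 42.6, a log2 ratio of -0.71. The probe sets of this pair of near-identical genes therefore disagreed in direction, and the split of signal between Gzmd and Gzme is uncertain.

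Gzmb, the granzyme that cleaves after aspartate and activates caspases, was well above the floor on both arrays. Its signal was 524 on the knockout-labelled array and 478 on the control array, a log2 ratio of 0.13. Gzma, a granzyme with trypsin-like specificity, had 169 on the knockout-labelled array and 231 on the control array, a log2 ratio of -0.45. Prf1, which encodes perforin, had 64.9 on the knockout-labelled array and 45.7 on the control array, a log2 ratio of 0.50, and its other probe set was under the floor on both arrays at 10.6 and 6.48. All 3 ratios were smaller than the probe set SD of 0.64.

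Of the receptors, Klrd1 was higher and Il2rb lower on the knockout-labelled array, and Klrk1 and Ncr1 were near or under the floor on both. Klrd1 encodes CD94, which pairs with NKG2 proteins in a receptor for the class Ib molecule Qa-1. It had a signal of 270.0 on the knockout-labelled array and 117 on the control array, a log2 ratio of 1.21, at its only probe set. The ratio was above that of 96.7% of all genes.

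Il2rb, the beta chain shared by the receptors for interleukins 2 and 15, had 31.1 on the knockout-labelled array and 74.9 on the control array, a log2 ratio of -1.27. Its other probe set was under the floor on both arrays, at 4.70 and 13.0, so the ratio rests on 1 probe set. With the floor raised to the 60th percentile, a signal of 66.3, the knockout-labelled value was at the floor and the bound was -0.18. After centring each array on its median and after removal of the trend of ratio on signal the ratio was -0.99 and -0.997, just short of 2-fold.

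Ncr1, which encodes the activating receptor NKp46, had 13.6 on the knockout-labelled array and 30.4 on the control array, at least 1.54-fold lower. With the floor lowered to the 25th percentile, a signal of 6.81, both of its values were measured and its log2 ratio was -1.16. Klrk1, which encodes the activating receptor NKG2D, had 18.4 and 26.8, at least 1.36-fold lower. Klrk1 and Klrd1 are neighbours on chromosome 6, and they stood on opposite sides of 0. Ncr1 and Klrk1 were close to the floor on the control array as well, so these bounds carry little size.

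Il15, the cytokine of the set, differed little between the arrays. Its signal was 109 on the knockout-labelled array and 129 on the control array at its only probe set, a log2 ratio of -0.25. The ratio turned to 0.04 after median centring and stood between -0.25 and -0.07 under the 7 other alternatives. It was smaller than the probe set SD.

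Of the 10 ratios, 4 were larger than 1 SD of the probe set disagreement (Gzmc, Gzmd, Klrd1 and Il2rb) and 2 were larger than 2 SD, a log2 ratio of 1.28 (Gzmc and, as a bound, Gzmd). Ncr1 and Klrk1 entered this count as bounds, of -0.62 and -0.44. With the floor at the 25th percentile they were -1.16 and -0.54, and that of Ncr1 was then larger than 1 SD. Under the 8 alternatives to the scaling, the floor and the choice of probe set, Gzmc lay between -2.06 and -1.54 and Klrd1 between 1.17 and 1.49. Gzmd lay between -1.85 and -1.33 under the 7 that left it above the floor. Gzma, Klrk1, Ncr1 and Il2rb were negative and Gzmb and Prf1 positive under every alternative in which they were above the floor. Not every alternative could move a value. Gzmc and Klrd1 have 1 probe set each, so the choice of probe set could not change them, and neither could the lower floor. Changes of floor and the pseudocount cannot reverse a sign. For a gene with 1 probe set above the floor, only the changes of scaling could have done so.

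**Figure D3:**
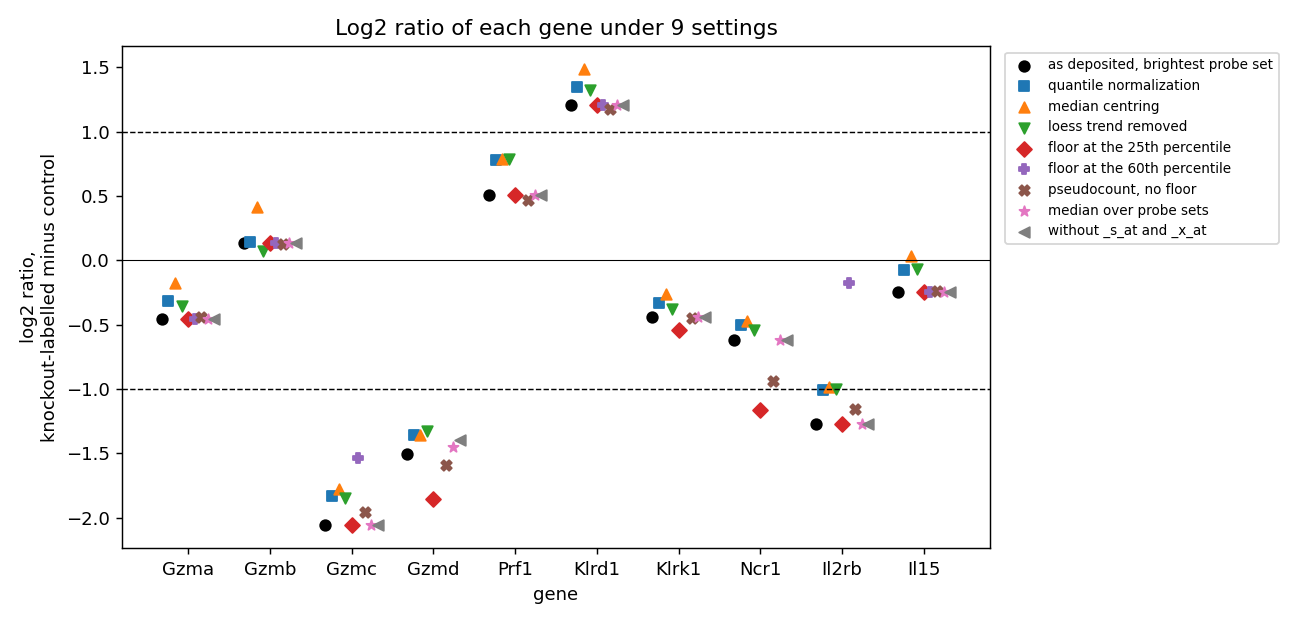
Log2 ratio, knockout-labelled minus control, of each of the 10 genes under the reported setting (black) and 8 alternatives; dashed lines mark 2-fold, and a gene has no point where both arrays were at the floor. The points of Gzmc stay below the lower line and those of Klrd1 above the upper line, those of Il15 cross 0, and the point of Il2rb with the floor at the 60th percentile lies at -0.18.

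The other genes of the natural killer cell pathway were described by 7 lists. Their counts stand beside those of all genes measured, of which 13.0% were lower and 6.21% higher by 2-fold or more. Of 22 other granule and effector genes, 14 of the 20 on the array were above the floor, with 3 lower by 2-fold or more and none higher to that extent. Their median log2 ratio of -0.26 turned to 0.02 after median centring. Those past 2-fold were the chemokine genes Xcl1 (signal 44.7 on the knockout-labelled array and 136 on the control array, log2 ratio -1.61) and Ccl5 (-1.12), and Nkg7, a membrane protein of cytotoxic granules (80.4 and 171, log2 ratio -1.09). Ifng, Gzmk and Gzmm were at the floor on both arrays.

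The partners and adaptors of the receptors went both ways. Of 20 on the array, 13 were above the floor, with 2 past 2-fold upward (6.21% of all genes) and 1 downward (13.0% of all genes). The median log2 ratio of 0.16 turned to -0.02 without _s_at and _x_at probe sets, when 10 genes were measured and 0 were past 2-fold upward. The 2 higher ones were the Ly49 receptor genes Klra8 (266 on the knockout-labelled array and 63.3 on the control array, log2 ratio 2.07) and Klra7 (152 and 46.9, log2 ratio 1.69), members of a family of near-identical copies in which probes can match several genes. Fcer1g, the signalling chain through which NKp46 and Fc receptors act, was lower (60.8 and 464, log2 ratio -2.93). Cd247, the other chain of NKp46, was at the floor on both arrays. The 2 adaptors of NKG2D in the mouse, Tyrobp and Hcst, had log2 ratios of 0.26 and -0.46, neither past 2-fold (chosen after their values were seen). Fcer1g and Tyrobp are also genes of macrophages, so they do not mark natural killer cells alone. The CD94 partner Klrc1 was under the floor on the control array and at least 1.25-fold higher on the knockout-labelled array.

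Of 15 ligands of these receptors 5 were on the array and 4 above the floor, with 2 at least 2-fold lower (median -0.23, turning to 0.05 after median centring). Clec2d, a ligand of a Klrb1 receptor, had 178 on the knockout-labelled array and 544 on the control array (log2 ratio -1.61). Cd48, the ligand of the receptor encoded by Cd244a, had 21.8 and 53.3 (-1.29).

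In the interleukin 15 pathway Jak1 was lower at all 3 of its probe sets, and those of Socs3 disagreed in direction. Of 14 receptor and signalling genes on the array 11 were above the floor, with 1 past 2-fold in each direction. Their median of -0.30 moved to between -0.05 and -0.02 under each other scaling. Jak1, the kinase bound to the beta chain, had 392 on the knockout-labelled array and 987 on the control array (log2 ratio -1.33), and its other probe sets gave -1.26 and -0.34. Socs3, a feedback inhibitor of cytokine signalling, had 4908 and 2182 (log2 ratio 1.17), but its other probe sets gave 0.75 and -0.12. Il15ra, which presents interleukin 15 to neighbouring cells, had 46.5 and 81.1 (-0.80), within 2-fold and chosen after its value was seen. Jak1 and Socs3 are active in most cell types and are no markers of lymphocytes.

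Of 10 other natural killer cell cytokine and receptor genes 5 were above the floor (median 0.23), and at this floor 0 passed 2-fold in either direction. The interleukin 18 receptor gene Il18r1, with 30.0 on the knockout-labelled array and 9.34 on the control array, was at least 1.52-fold higher. With the floor at the 25th percentile its log2 ratio was 1.69, past 2-fold. The brightest, the transforming growth factor receptors Tgfbr2 (1951 on the knockout-labelled array and 2305 on the control array) and Tgfbr1 (300.5 and 188), had log2 ratios of -0.24 and 0.68. Of 10 transcription factors on the array 8 were above the floor, with 1 past 2-fold in each direction. Their median of 0.14 turned to -0.04 with the floor at the 60th percentile. Nfil3, a factor of natural killer cell development in the mouse, had 230 on the knockout-labelled array and 481 on the control array (log2 ratio -1.06), and Ahr, the aryl hydrocarbon receptor, had 491 and 231 (1.09). Chosen after their values were seen, the T-box factors of this lineage were within 2-fold, Tbx21 at 0.28 and Eomes at -0.54, with 0.18 at the other probe set of Eomes. Runx3, a Runx transcription factor gene chosen in the same way, was at the floor on both arrays. Its signal was 2.29 on the knockout-labelled array and 0.52 on the control array. Of 12 adhesion and homing genes on the array 6 were above the floor, with 2 lower by 2-fold or more, the chemokine receptor Cxcr3 (-1.03) and the integrin Itgb2 (-1.01), and none higher to that extent (median -0.27, turning to 0.01 after median centring).

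**Figure D4:**
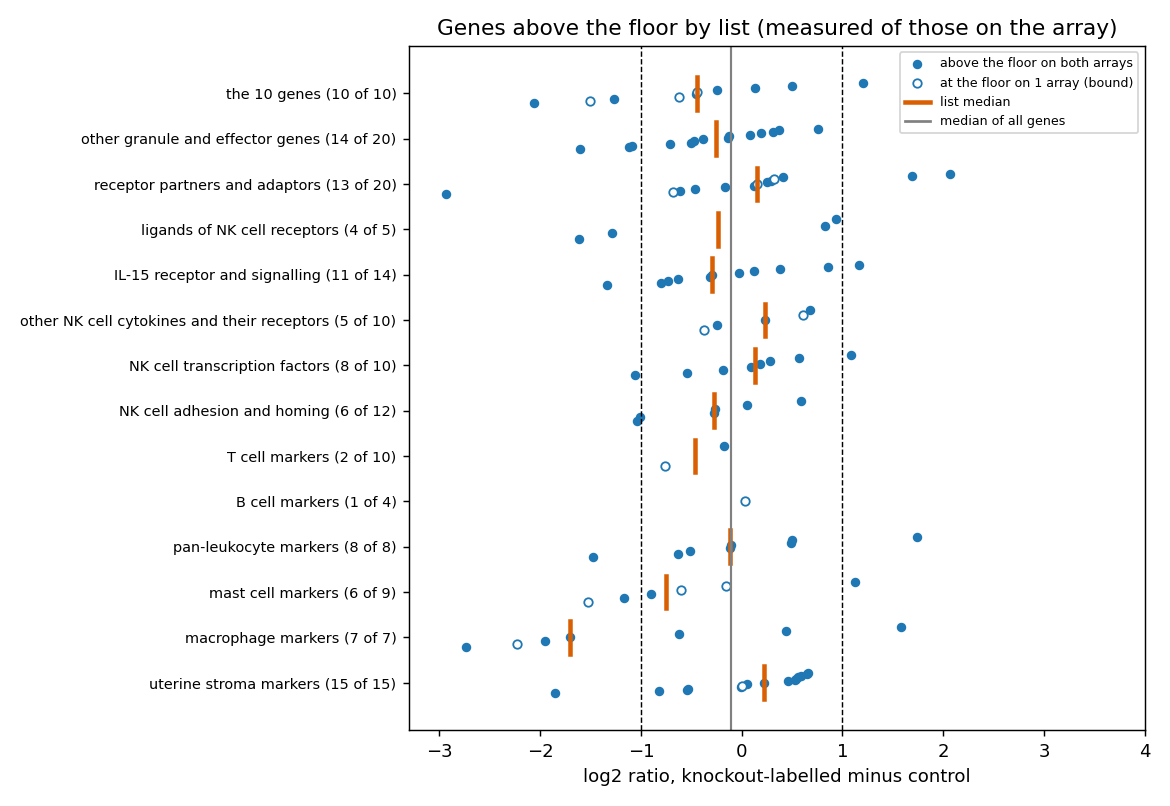
Log2 ratio, knockout-labelled minus control, of each gene above the floor in the 10 genes, the 7 pathway lists and the 6 marker lists; open points are bounds, orange bars list medians (for 2 or more genes), the grey line the median of all genes (-0.10) and dashed lines 2-fold. Points spread on both sides of the grey line in most lists, and 5 of 7 macrophage markers lie left of it with a list median of -1.70.

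Markers of other cells of the digest stood beside these values, and their counts too are to be read against the 13.0% of all genes lower and 6.21% higher by 2-fold or more. The defining T cell genes Cd3e, Cd4 and Cd8a were at the floor on both arrays, with 2 of 10 T cell markers above it (Cd3d, at least 1.69-fold lower, and Cd3g, -0.17) and a summed signal of 82.7 on the knockout-labelled array and 107 on the control array. The B cell genes Cd79a, Cd79b and Ms4a1 did not pass the floor on either array. Cd22 alone of 4 markers passed it, on the knockout-labelled array (list sums 40.8 and 26.4). All 8 pan-leukocyte markers were above the floor, with summed signals of 2980 on the knockout-labelled array and 2692 on the control array. Of these Ptprc, which encodes CD45, was higher (545 and 164, log2 ratio 1.74) and Rac2, a GTPase of blood cells, was lower (33.1 and 91.9, -1.48). Their median of -0.11 turned positive under each other scaling, to between 0.03 and 0.17. The summed signals of the pan-leukocyte markers use the brightest probe set of each gene. For Laptm5 and Coro1a these had log2 ratios of 0.50 and 0.49, but the next brightest gave -0.90 and -2.01. Lcp1 changed the other way, from -0.51 to 0.51. The order of the sums rests on the choice of probe set. It reverses with the next brightest probe set of Laptm5, an alternative chosen after seeing the data. That probe set had 127 on the knockout-labelled array and 237 on the control array, in place of 980 and 693 at the brightest, an _x_at set.

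Mast cells, which can also hold granzymes in the mouse, had 6 of 9 markers above the floor, with 2 at least 2-fold lower (Cma1, at least 2.87-fold, and Kit, -1.17) and 1 past 2-fold upward (Hdc, 1.13). Their median was -0.75, and their summed signal was 280.1 on the knockout-labelled array and 409.8 on the control array. The other probe set of Hdc ran the other way, with 7.89, under the floor, on the knockout-labelled array and 20.7 on the control array. All 7 macrophage markers were above the floor on at least 1 array, with 4 at least 2-fold lower, C1qa (-2.73), Aif1 (at least 4.68-fold), Cd68 (-1.95) and C1qc (-1.70). C1qb was at least 2-fold higher at its brightest probe set (1.58) and lower at another (-2.68). The summed macrophage signal was 2383 on the knockout-labelled array and 2121 on the control array, an order that rests on the brightest probe set of C1qb (1008 and 337), an _x_at set. Without C1qb the sums were 1374 and 1784, lower on the knockout-labelled array, and with either other probe set of C1qb they were 1422 and 2094 or 2025 and 2233, alternatives chosen after seeing the data. The part of mast cells and macrophages in the ratios of the 10 genes was not tested.

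The label of stromal cells was checked against 15 stroma markers, all above the floor on at least 1 array, with signals of 10987 on the knockout-labelled array and 7439 on the control array for the collagen gene Col3a1 and 7436 and 4701 for the brightest probe set of Vim. Another probe set of Vim ran the other way, with 3595 on the knockout-labelled array and 5391 on the control array (log2 ratio -0.58). Esr1, which encodes an estrogen receptor, stayed at the floor on the control array, and Hand2, a progesterone-induced factor of the stroma, was dim at 22.1 and 21.2. Hoxa11 was the 1 marker past 2-fold at its brightest probe set (108 and 389, log2 ratio -1.85). Of all genes, 13.0% were lower and 6.21% higher by 2-fold or more. Dimmer probe sets of Pdgfrb (-2.09), Pdgfra (-1.70) and Col1a1 (-1.26) were lower by 2-fold or more. Those of Nr2f2 were higher (0.81 and 0.70), and its brightest was lower (-0.54). By any amount, 10 of the 15 markers were higher and 5 lower at their brightest probe set, where 3839 of all 8593 genes were higher and 4754 lower. The median of 0.22 turned to -0.0026 after quantile normalization.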

How the data were processed

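Each probe set has 1 deposited intensity, a linear MAS5 signal that the authors obtained from Affymetrix Expression Console (version 1), per the submitters' processing notes. Per the labels' protocols, 100 ng of Trizol-extracted, column-cleaned RNA was amplified and biotin-labelled with a 3′ Express kit. The scaling target and detection calls were not used here. The authors' scaling was kept.

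Groups came from the sample titles. Gene names came from the platform annotation, with symbols updated by Entrez identifier from RefSeq (GRCm38.p6). Of 22626 probe sets other than controls, 20380 have 1 symbol (20351 matched in RefSeq), 691 several and 1555 none here, and those with several named no gene. A floor at the 40th percentile was set before log2, and the brightest probe set (highest mean log2 signal) stood for a gene. Where 1 array was at the floor, only a bound is given. Counts used a 2-fold rule. No test was possible with 1 array per group, and the number of arrays limits the precision.

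Named were all 10 genes, the 3 target genes, and from each of 13 wider lists up to 4 members past 2-fold or, with none, the 2 brightest. Any other gene in the text was chosen after its values were seen. The members and lists were chosen with earlier results of these data known. With 2 arrays no likeness of pattern was ranked. Alternatives were quantile normalization, median centring, removal of a loess trend (span 0.4), floors at the 25th and 60th percentiles, a pseudocount of 4.70 in place of the floor, the median over probe sets, omission of _s_at and _x_at probe sets, and rules of 1.5-fold and 3-fold. An alternative was said to keep a value if it moved it by less than the probe set SD, or a count by at most 1.5 times. The scripts were tested on simulated data, with large changes planted in bright genes and noise smaller than the probe set SD. Recovery at the signal and noise of the 10 genes was not tested. Python 3.11.15, pandas 2.3.3, statsmodels 0.14.6 and Biopython 1.88 were used.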

Additional observations from a re-analysis of the deposited data

Results flagged for a closer look

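A probe set annotated to both Gzme and Gzmd lay outside the rule for the 10 genes and entered no count. Its signal was 113 on the knockout-labelled array and 60.4 on the control array, a log2 ratio of 0.90, higher where the 2 probe sets of Gzmd alone were at least 2.84-fold and at least 2.63-fold lower. It was singled out as signal above the control in data that the comparison did not use. Which of its 2 genes it measured was not tested.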

How the results depend on the processing

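The counts past 2-fold, 3 genes lower and 1 higher, stayed within 1.5 times under the alternatives with 3 exceptions: with the floor at the 60th percentile 1 gene was lower (6 of the 10 were then above the floor), and under a 3-fold rule 1 was lower and 0 were higher. Of all genes measured, 9.28% were lower by 2-fold or more with the floor at the 60th percentile. Under the 3-fold rule 3.84% of all genes were lower and 1.23% higher. The median log2 ratio of the 10 stayed negative, between -0.50 and -0.21. Counting the shared Gzme and Gzmd probe set for Gzmd, an alternative chosen after seeing the data, reversed Gzmd to 0.90 and left 2 genes lower. Scaling moved the median of all genes from -0.10 as deposited to 0.03 (quantile), 0.16 (median centring) and -0.01 (loess). Relative to it the median of the 10 was -0.35 as deposited and -0.36, -0.38 and -0.36. Under the alternatives to the floor and the choice of probe set, this relative median moved further. It ranged from -0.43 with the floor at the 25th percentile to -0.16 with the floor at the 60th percentile. The share of higher genes among all past 2-fold was 32.3% as deposited, 46.5% with quantile normalization, 63.3% with median centring and 43.7% with the loess trend removed. List medians that moved by more than the probe set SD were those of receptor ligands (range -0.96 to 0.83), mast cell markers (-1.43 to -0.02) and macrophage markers (lowest -1.83, highest -0.62). No paired analysis was possible because each group has 1 array. Signals near the floor, as of Ncr1 and Klrk1, limit what can be measured.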

Other observations

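Genes whose symbols begin with Klr, the lectin-like receptors of natural killer cells, were grouped after their values were seen. Of 16 on the array 7 were above the floor, and on the knockout-labelled array 3 of these were higher by 2-fold or more and none lower to that extent, with a median log2 ratio of 0.32. Of all genes measured, 6.21% were higher and 13.0% lower by 2-fold or more. Klra8 (2.07), Klra7 (1.69) and Klrd1 (1.21) were the 3, Klrg1 was at 0.13, Klrc1 and Klrb1b were at least 1.25-fold and 1.11-fold higher, and Klrk1 was at least 1.36-fold lower. Klra8 and Klra7 were measured above the floor by _x_at probe sets alone, whose probes can match other genes. Leaving out _s_at and _x_at probe sets, an alternative chosen after seeing the data, left 4 Klr genes above the floor with Klrd1 alone past 2-fold. Genes whose symbols begin with Gzm, were grouped in the same way. Of 10 on the array 6 were above the floor, with Gzmc and Gzmd lower by 2-fold or more (13.0% of all genes) and none higher to that extent (6.21% of all genes). By any amount 4 were lower and 2 higher, with a median of -0.58. Of all 8593 genes, 4754 were lower by any amount and 3839 higher. Gzmf (0.31) and Gzmb (0.13) were higher by less than 2-fold. Both groups include genes described in the report.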
